A study of Mus musculus with 59 samples.

Results

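The 10 genes described here mark the choroid plexus and were followed in cortex and hippocampus of mice with mitochondrial gene mutations. They are Ttr, Clic6, Kl, Folr1, Otx2, Sostdc1, Slc4a5, Kcnj13, Aqp1 and Kcne2, chosen by name from the 57180 gene rows of the count table, in which each has 1 row. Poly(A) RNA of male mice was sequenced in 59 libraries from 30 animals, of which 29 gave both tissues, and neither the age nor the strain of the animals is stated in the labels. The labels name wild type (Mrpl40 +/+, Slc25a1 +/+), Slc25a1 heterozygotes (Slc25a1 -/+, called Slc25a1 het), Mrpl40 heterozygotes (Mrpl40 -/+, called Mrpl40 het) and animals carrying both heterozygous alleles (double het). In that order there were 9, 7, 7 and 7 cortex libraries and 8, 7, 7 and 7 hippocampus libraries. Slc25a1 makes the carrier that exports citrate from mitochondria, Mrpl40 makes a protein of the mitochondrial ribosome, and both lie in the mouse region matching human 22q11.2.

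The choroid plexus is a folded sheet of epithelium that hangs in the brain ventricles and secretes cerebrospinal fluid. Its cells move ions and water, carry folate and thyroid hormone into the fluid, and release proteins such as transthyretin and klotho. It is not part of the cortex or the hippocampus, but the choroid plexus of the lateral ventricle lies against the hippocampus. Whether transcripts of these genes in a dissected tissue came from attached ventricle tissue or from the tissue itself was not tested. In such bulk samples, fewer cells of a type and less RNA per cell cannot be told apart.

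Library totals ranged from 21443017 to 32120906 counts, so that 1 count was worth 0.0311 to 0.0466 CPM (counts scaled to a common library total). The labelled tissues fitted their marker genes: 8 hippocampal subfield genes summed to 507 to 980 CPM in hippocampus and 71.1 to 152 CPM in cortex, and 8 neocortical layer genes to 163 to 295 CPM and 785 to 1072 CPM. Slc25a1 itself had cortex medians of 24.0 CPM in wild type and 22.0 CPM in Mrpl40 het, against 12.6 CPM (Slc25a1 het) and 11.5 CPM (double het), but single libraries reached down to 12.0 CPM in wild type and up to 23.9 and 21.2 CPM in Slc25a1 het and double het. These came from 6 animals whose Slc25a1 level contradicts the genotype label in both tissues (animals 6 and 7, labelled wild type; 12 and 13, labelled Slc25a1 het; 29 and 30, labelled double het). Mrpl40 lay between 14.3 and 20.5 CPM in cortex, against 13.2 to 17.7 CPM in hippocampus, with overlapping ranges in all 4 labelled genotypes, and whether its counts include transcripts of the mutant allele is not known. Genotypes are therefore given as labelled throughout. No libraries of a group agreed within sampling noise.

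Sequences are shown for Otx2, the regulator among the members, and for Kl, the member with the largest tissue difference. RefSeq promoter windows of GRCm38.p6 were examined for 6 of the 10 members, in 10 windows. Windows of Ttr, Clic6, Folr1 and Sostdc1 were not among these 10, so the count leaves those members out. The motif TAATCC, which Otx homeodomain proteins are known to bind, was searched on both strands (GGATTA on the other) in the 250 bases before each start. It stood in 1 of these 10 windows, upstream of an inner Otx2 start, and in 6.25% of all 32851 windows. The match says nothing of binding. The first line gives the 250 bases before the outermost Otx2 start (chr14:48667645-48667894, minus strand), the next the 30 bases around the match (chr14:48665303-48665332, minus strand; capitals mark the motif), and the last the 250 bases before Kl (chr5:150952357-150952606, plus strand), in which the motif's letters do not occur.
Otx2 outermost start: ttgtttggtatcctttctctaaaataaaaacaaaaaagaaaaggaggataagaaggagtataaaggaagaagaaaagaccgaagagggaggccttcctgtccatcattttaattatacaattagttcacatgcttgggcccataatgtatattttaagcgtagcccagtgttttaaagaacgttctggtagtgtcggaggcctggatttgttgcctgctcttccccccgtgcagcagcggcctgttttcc
Otx2 inner start: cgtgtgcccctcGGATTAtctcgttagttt
Kl: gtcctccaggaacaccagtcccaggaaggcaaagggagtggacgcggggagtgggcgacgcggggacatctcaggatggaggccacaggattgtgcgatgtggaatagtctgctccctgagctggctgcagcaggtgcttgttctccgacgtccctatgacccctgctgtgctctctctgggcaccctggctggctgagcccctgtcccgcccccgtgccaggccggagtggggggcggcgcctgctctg

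All 10 genes were detected in both tissues, most of them at a few counts per library. Summed over the set, cortex libraries held 3.65 to 15.2 CPM and hippocampus libraries 22.4 to 102 CPM. Per kilobase of annotated exon, Ttr had the highest median level in both tissues (2.20 CPM per kb in cortex and 4.06 in hippocampus). Kl followed in both, with 0.274 CPM per kb in cortex and 2.79 in hippocampus, and Sostdc1 came next, with 0.225 and 0.981. The other 7 genes had medians of 0.0225 to 0.154 CPM per kb in cortex and 0.0231 to 0.190 in hippocampus, and their ranges over libraries overlapped.

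Among the secreted proteins, Ttr (ENSMUSG00000061808, chromosome 18) encodes transthyretin, the thyroxine carrier that choroid plexus epithelium makes in large amounts. In cortex labelled wild type it had a lowest, median and highest level of 0.269, 1.68 and 2.64 CPM. The values were 0.0969, 2.73 and 7.41 CPM for Slc25a1 het, 1.12, 2.77 and 7.90 CPM for Mrpl40 het, and 0.995, 3.90 and 5.29 CPM for double het. All 4 groups overlapped, and the lowest cortex library held 3 counts. In hippocampus the same 3 values were 0.714, 3.52 and 5.77 CPM in wild type and 0.270, 6.92 and 11.1 CPM in Slc25a1 het. They were 1.13, 9.91 and 36.8 CPM in Mrpl40 het and 0.676, 4.18 and 58.4 CPM in double het. Again all groups overlapped, and the highest values came from 1 library in each of the last groups.

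Kl (ENSMUSG00000058488, chromosome 5) encodes klotho, a membrane co-receptor for FGF23 that is also shed as a soluble protein. Its cortex levels ran from 0.765 to 4.59 CPM with a median of 2.55. In hippocampus they ran from 19.0 to 36.4 CPM with a median of 26.1, so that every hippocampus library lay above every cortex library. The hippocampal group medians were 23.6 CPM (wild type), 26.1 CPM (Slc25a1 het), 28.3 CPM (Mrpl40 het) and 27.1 CPM (double het), and all these groups overlapped. Sostdc1 (ENSMUSG00000036169, chromosome 12), which encodes a secreted antagonist of BMP and Wnt signals, showed the same separation. It ranged from 0.151 to 0.746 CPM in cortex and from 0.924 to 4.31 CPM in hippocampus, with medians of 0.401 and 1.75. Its hippocampal group medians were 1.70, 1.57, 2.11 and 1.95 CPM in the same order, again with overlap.

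Among the channels, transporters and receptors, Clic6 (ENSMUSG00000022949, chromosome 16), of the chloride intracellular channel family, had tissue medians of 0.370 CPM (cortex) and 0.582 CPM (hippocampus). Its cortex medians by labelled genotype were 0.241 CPM in wild type, 0.373 CPM for Slc25a1 het, 0.376 CPM for Mrpl40 het and 0.513 CPM for double het. In hippocampus the lowest, median and highest level were 0.125, 0.272 and 0.488 CPM in wild type and 0.0385, 0.896 and 2.08 CPM in Slc25a1 het. They were 0.206, 1.15 and 2.93 CPM in Mrpl40 het and 0.435, 0.631 and 3.82 CPM in double het. Group medians were lowest in wild type in both tissues, while the groups overlapped. Its highest library held 31 counts in cortex and 109 in hippocampus. Aqp1 (ENSMUSG00000004655, chromosome 6), the water channel of the apical membrane, had medians of 0.404 and 0.50 CPM. Kcne2 (ENSMUSG00000039672, chromosome 16), a potassium channel accessory subunit, had medians of 0.218 and 0.268 CPM. These ranges overlapped between the tissues.

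The folate receptor gene Folr1 (ENSMUSG00000001827, chromosome 7) had a median of 0.166 CPM in cortex, against 0.0669 CPM in hippocampus, and 22 of 29 hippocampus libraries held 3 counts or fewer. The bicarbonate transporter gene Slc4a5 (ENSMUSG00000068323, chromosome 6) had medians of 0.131 and 0.134 CPM. The inward rectifier potassium channel gene Kcnj13 (ENSMUSG00000079436, chromosome 1) had medians of 0.180 and 0.0466 CPM. A library at 0 counts allows a level of up to 3 counts (0.0934 to 0.140 CPM, depending on the library), a limit for counting error only.

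Otx2 (ENSMUSG00000021848, chromosome 14), a homeodomain transcription factor needed to form and maintain the choroid plexus, was at 0 counts in 7 of 9 cortex libraries labelled wild type, which held 5 counts in all. The 7 libraries each of Slc25a1 het, Mrpl40 het and double het held 22, 24 and 32 counts, with 1, 0 and 1 libraries at 0. The wild type counts were 4 in replicate 5 and 1 in replicate 8. In hippocampus the group totals were 14 counts for wild type, 161 for Slc25a1 het, 61 for Mrpl40 het and 154 for double het. Most of the hippocampal counts came from 3 libraries, with 120, 62 and 42 counts.

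**Figure D1:**
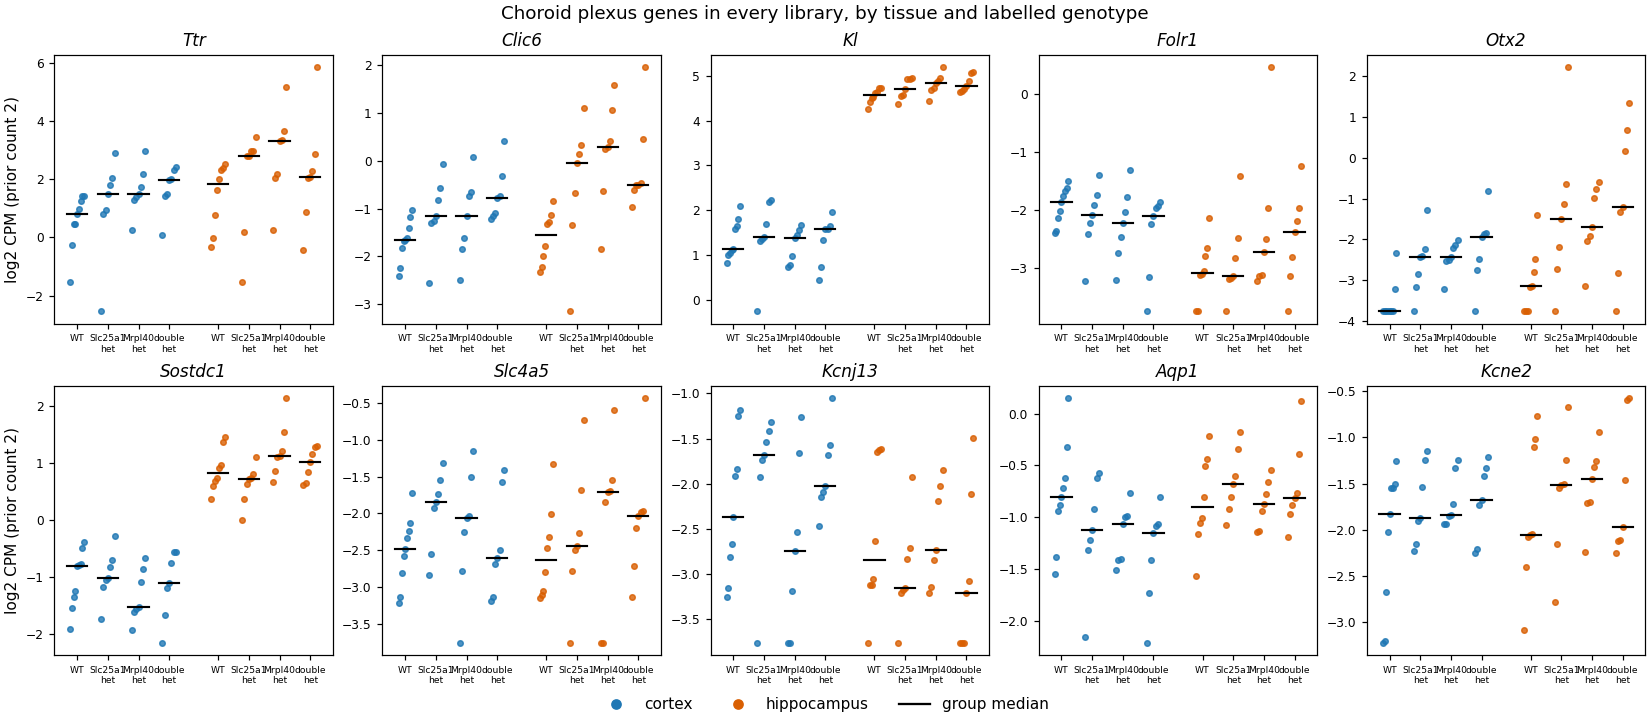
Level of each of the 10 genes in every library as log2 CPM (prior count 2), in cortex (blue, 30 libraries) and hippocampus (orange, 29 libraries) by labelled genotype, with group medians as black lines. Kl and Sostdc1 separate the tissues without overlap, whereas Ttr, Clic6 and Otx2 scatter widely within groups. The share of all genes that separate the tissues in this way was not counted.

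Hippocampus was compared with cortex in the same 29 animals, to see which of these genes differ between the tissues. Of the 10 members, 7 passed the filter on low counts and 6 of those rose in hippocampus, where 77.5% of all 21354 tested genes were called, 39.8% higher and 37.7% lower. The share of members is thus read against a background in which most genes differ. These 6 include Otx2, which like Kcne2 did not pass the filter in cortex alone, and Folr1, Slc4a5 and Kcnj13 passed it nowhere.

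Kl rose by a log2 fold change of 3.35 ± 0.11 (SE, n = 29 animals; edgeR adjusted p = 2.69e-20) and was higher in hippocampus in 29 of 29 animals. Sostdc1 rose by 2.16 ± 0.13 on the log2 scale (adjusted p = 6.00e-17), also in 29 of 29. Both genes thus separated the tissues in every animal. How many of all tested genes do so was not counted, and 77.5% of them were called between the tissues.

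Otx2 had a difference of 1.75 ± 0.44 on the log2 scale (adjusted p = 0.000750), with 22 of 29 animals higher. It passed the filter only through hippocampus, the tissue in which it is higher, so its call is not independent of the filter. In wild type alone Otx2 did not pass the filter. When all genes above 0 were tested its difference was 1.73 ± 0.46 (adjusted p = 0.00307). Without its 3 highest libraries, a choice made after seeing the data, the difference was 1.24 (adjusted p = 0.00664). Ttr rose by 1.00 ± 0.24 (adjusted p = 0.000447; 24 of 29 animals), and by 0.73 without its 2 highest libraries, likewise chosen after seeing the data (adjusted p = 0.000358). The tissue difference of Ttr therefore did not rest on those libraries alone.

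Clic6 rose by 0.80 ± 0.22 on the log2 scale (adjusted p = 0.00128; 21 of 29 animals), and by 0.49 when the 6 animals with a contradicted label were left out (adjusted p = 0.0285). Aqp1 rose by 0.34 ± 0.14 (adjusted p = 0.0280; 20 of 29 animals). In wild type alone its difference was -0.10 (adjusted p = 0.759), and without those 6 animals 0.25 (adjusted p = 0.148). Kcne2 had a difference of 0.20 ± 0.20 (adjusted p = 0.364). In wild type alone Clic6 and Kcne2 did not pass the filter.

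The 3 genes under the filter did not follow this order. When all genes above 0 were tested, Kcnj13 was lower in hippocampus by -0.97 ± 0.31 (adjusted p = 0.00817), with 9 of 29 animals higher. Folr1 had -0.71 ± 0.30 (adjusted p = 0.0528) and Slc4a5 0.10 ± 0.27 (adjusted p = 1). The 10 genes therefore did not shift between the tissues as a block.

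**Figure D2:**
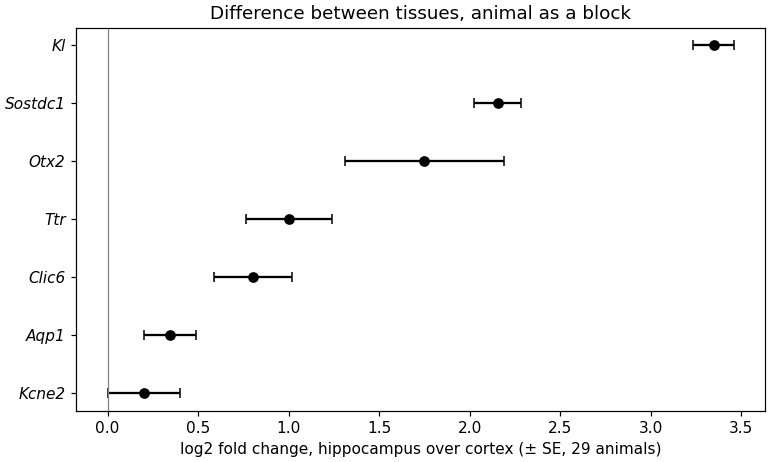
Log2 fold change of hippocampus over cortex for the 7 members that passed the filter, with the animal as a block (points, edgeR estimate; bars, SE; 29 animals). Kl at 3.35 and Sostdc1 at 2.16 lie farthest to the right, and the bar of Kcne2 reaches 0.

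A longer list of 29 other choroid plexus genes was mixed as well: of 23 tested, 12 rose and 9 fell in hippocampus, with a median log2 change of 0.37 against 0.01 for all tested genes. Among those named after their values were seen, Prlr, the prolactin receptor gene, rose by 1.44 ± 0.11 (adjusted p = 6.25e-14). Calml4, a calmodulin-like gene, rose by 1.06 ± 0.26 (adjusted p = 0.000468). Enpp2, which encodes autotaxin, fell by 0.97 (SE 0.05, adjusted p = 1.10e-15). Enpp2 is also made by oligodendrocytes, and its cortex level of 170 to 230 CPM outweighed all 10 members together.

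Of 18 partner genes in ion, folate, klotho and transthyretin pathways, 7 rose and 7 fell. Fgfr1, the receptor that klotho joins, rose by 1.47 ± 0.04 (adjusted p = 5.70e-26), and Rbp4, which encodes the retinol carrier bound by transthyretin, fell by 2.11 (SE 0.12, adjusted p = 2.91e-15). Of 12 ependymal genes, which mark the ciliated cells lining the ventricles, 8 were tested, 6 rose and 1 fell. Foxj1, the master regulator of motile cilia, rose by 0.40 ± 0.07 (adjusted p = 6.64e-06). The part of ependymal cells in the differences of the members was not tested.

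The spread between libraries of a group was then measured, and the part of ventricle tissue in it was not tested. The biological coefficient of variation, the spread beyond counting error, was 66.1% for Ttr in cortex, against a median of 8.93% over all tested genes and 14.0% for genes of its level. Clic6 stood at 40.3%, Kl at 34.6%, Sostdc1 at 23.7% and Aqp1 at 21.7%. Genes of their level had 21.0%, 14.3%, 21.0% and 21.0% in that order, so that Sostdc1 and Aqp1 stood near genes of their level. Ttr was thus more variable than 99.9% of the genes tested in cortex.

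In hippocampus the coefficient was 122% for Otx2, 100% for Ttr and 69.7% for Clic6, against a median of 10.6%. Kcne2 followed at 39.0%, Sostdc1 at 23.6%, Aqp1 at 17.1% and Kl at 14.3%. Among all tested genes Aqp1 and Kl stood at percentiles 74.5 and 66.0. Genes of the level of Kcne2, Sostdc1 and Aqp1 had 24.9%, 19.0% and 24.3%, so that Aqp1 lay below genes of its level. Kl, with the largest tissue difference, thus had the lowest coefficient of the 7 tested members in hippocampus, though above the 9.67% of genes of its level, whereas Otx2, Ttr and Clic6 had the highest.

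The difference in spread between the tissues was tested by swapping tissues within animals (two-sided permutation test, adjusted over the 10 genes). By this permutation test the mean absolute deviation of Kl from its group median differed, being 0.38 log2 units in cortex and 0.16 in hippocampus (p = 0.00103, adjusted p = 0.0103). For Otx2 it was 0.42 in cortex and 0.98 in hippocampus (permutation p = 0.00319, adjusted p = 0.0160). The call for Otx2 depends on how low counts are treated, since with a prior count of 0.5 in place of 2 its adjusted p was 0.102. Ttr had 0.71 in cortex and 1.09 in hippocampus (permutation p = 0.0564, adjusted p = 0.188), and the other 7 genes had adjusted p of 0.199 or more.

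Whether the members rose and fell together was asked by comparing each with Ttr over the libraries of a tissue, after subtracting group medians (18 relations, permutation tests). Clic6 followed Ttr in both tissues. In cortex Pearson's r was 0.63 (p = 0.00018, adjusted p = 0.00162) and Spearman's rho 0.64 (p = 0.00029, adjusted p = 0.00258; 30 libraries). In hippocampus r was 0.88 and rho 0.77 (29 libraries), both with a permutation p of 1e-05, the smallest that 100000 resamples can give, and an adjusted p of 0.00018. Without the 2 libraries farthest from the median of Ttr, r was 0.46 in cortex and 0.76 in hippocampus.

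In hippocampus Folr1, Otx2 and Slc4a5 also rose with Ttr. For Folr1 r was 0.57 (p = 0.00218, adjusted p = 0.00785) and rho 0.62 (p = 0.00043, adjusted p = 0.00258), with r of 0.54 after leaving out the 2 farthest libraries. For Otx2 r was 0.56 (p = 0.00191, adjusted p = 0.00785) and rho 0.59 (p = 0.0009, adjusted p = 0.00405), with r of 0.55 after leaving them out. For Slc4a5 r was 0.56 (p = 0.00191, adjusted p = 0.00785) and rho 0.49 (p = 0.00746, adjusted p = 0.0269), and it rested on few libraries: without the 2 libraries highest in Ttr, rho was 0.39 (adjusted p = 0.153). No label names a dissection or sequencing batch, so that values within batches could not be given.

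Kl, Sostdc1, Kcnj13, Aqp1 and Kcne2 did not pass the test against Ttr in hippocampus, with rho of 0.36, 0.20, 0.26, -0.25 and 0.16. For Kl r was 0.40 (permutation p = 0.0320, adjusted p = 0.0961). In cortex the 8 genes other than Clic6 had rho of -0.051 to 0.28 and adjusted p of 0.360 or more. The rho of Otx2 with Ttr was 0.59 in hippocampus and 0.036 in cortex (r = 0.21), where Otx2 rests on few counts per library. Over 3 alternative settings this rho ran from 0.54 to 0.66 in hippocampus and from 0.031 to 0.38 in cortex. The difference between the tissues was not tested.

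**Figure D3:**
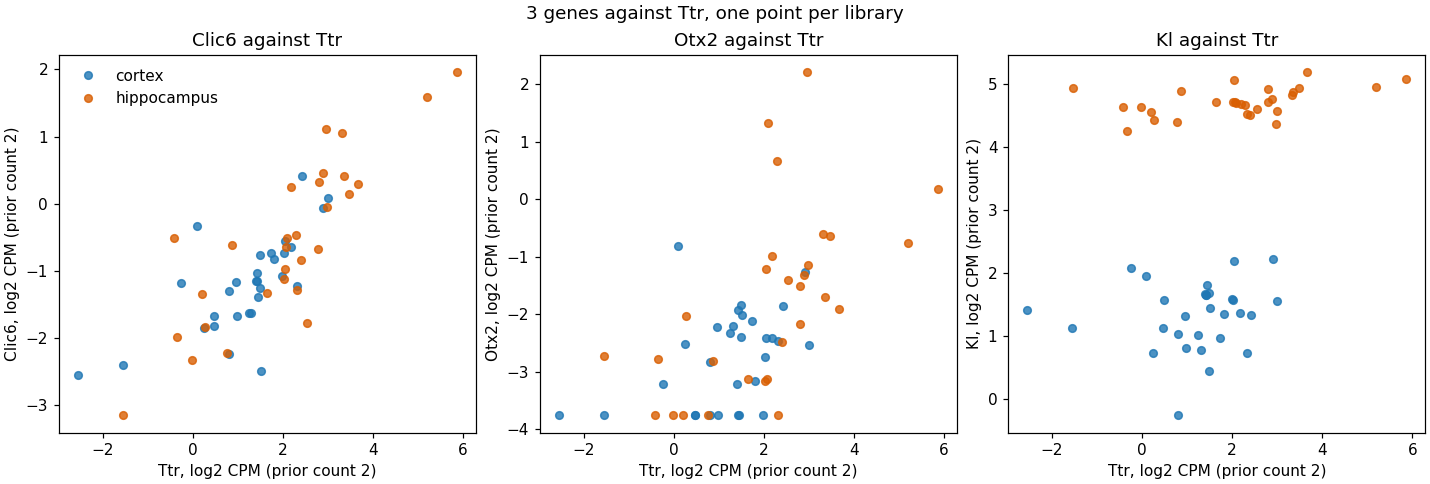
Log2 CPM (prior count 2) of Clic6, Otx2 and Kl against Ttr, 1 point per library (blue, 30 cortex; orange, 29 hippocampus). Clic6 rises with Ttr in both tissues, Otx2 rises with it in hippocampus with 3 libraries far above the rest, and Kl forms a separate band in each tissue.

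Among genes that are no members and had a mean of at least 1 CPM, those whose pattern over libraries was most like that of Ttr were Cd320 in cortex (r = 0.66 over 30 libraries, 16035 genes compared) and 2810006K23Rik in hippocampus (r = 0.67 over 29 libraries, 16089 genes compared). None of the 10 genes most like Ttr in either tissue belonged to a marker list. Genes with a mean under 1 CPM could not enter that ranking. In hippocampus without the 2 libraries highest in Ttr, the top gene was Slc37a3 (r = 0.71 over 27 libraries). Of the 29 other choroid plexus genes, 4 had r of 0.5 or more with Ttr in hippocampus, namely 1500015O10Rik (0.71), Calml4 (0.61), Mfrp (0.61) and Krt18 (0.61), and 0 did in cortex. These 4 had hippocampus medians of 0.0689 to 0.514 CPM, and the limit of 1 CPM kept them out of the ranking. These 29 genes had a median r of 0.067 in hippocampus. These correlations are descriptions, since so many genes were compared.

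The level of Ttr was also compared between the tissues of an animal, to see whether a high value belongs to the animal or to the library. After subtracting group medians r was 0.65 over 29 animals (p = 0.00018, adjusted p = 0.00180 over 10 genes) and rho 0.50 (p = 0.00627, adjusted p = 0.0627; permutation tests). Without the 2 animals farthest from the cortex median, r was 0.46. The animal lowest in cortex, labelled Slc25a1 het, was also lowest in hippocampus, with 3 and 7 counts. By r the relation passed the threshold and by rho it did not. Animals 3, 8 and 25 were likewise among the lowest 4 in each tissue. At the high end, animals 14, 21 and 30 were among the highest 4 in each tissue, with cortex levels of 7.41, 7.90 and 4.93 CPM beside hippocampus levels of 11.1, 12.6 and 58.4 CPM. Animal 22, with 36.8 CPM in hippocampus, had 2.57 CPM in cortex, rank 14 of 29 from the bottom. For the other 9 genes rho ran from -0.35 to 0.30, with adjusted p of 0.239 or more.

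In 2 hippocampus libraries Ttr stood far above the other 27, of which the highest had 12.6 CPM. The library labelled Mrpl40 het replicate 5 held 1066 Ttr counts (36.8 CPM). The library labelled double het replicate 6, from an animal with a contradicted label, held 1668 (58.4 CPM). They were chosen as the highest after seeing the data and are described without a test.

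The double het library was the highest of all hippocampus libraries in 6 of the 10 genes, among them Ttr, by which it was chosen. Beside Ttr these were Clic6 (3.82 CPM, median of the others 0.575), Slc4a5 (0.665 against 0.130), Kcnj13 (0.280 against 0.0458), Aqp1 (1.02 against 0.498) and Kcne2 (0.595 against 0.251). For Kcnj13 (8 counts) and Kcne2 the next library was close, at 0.252 and 0.586 CPM. The share of all genes in which this library was the highest was not counted. Of the 12 ependymal genes none was over 2 times the median of the other libraries there, and their sum was 9.81 CPM against a median of 8.75. Its hippocampal subfield genes summed to 930 CPM, the second highest value. In this library 8 of the 10 members were over 2 times the median of the others, but only 8 of the 29 other choroid plexus genes. The ependymal genes were at their usual level.

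The Mrpl40 het library was highest in Folr1 (38 counts, 1.31 CPM, median of the others 0.0567) and Sostdc1 (4.31 against 1.73 CPM), and the second highest in Ttr, Clic6 and Slc4a5. Here the ependymal genes were high too: 10 of 12 were the highest of all hippocampus libraries, and they summed to 45.0 CPM against a median of 8.75 and at most 23.2 in the others. Foxj1 stood at 11.2 CPM against a median of 3.52. Prlr at 6.07 CPM, Calml4 at 1.41, F5 at 1.69 and the keratin gene Krt18 at 0.793 were also the highest. Its hippocampal subfield genes summed to 507 CPM, the lowest value, and its Aqp1 level of 0.379 CPM was below the median.

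Of the 29 other choroid plexus genes, 6 in the Mrpl40 het and 8 in the double het library were over 2 times the median of the other libraries, and 5 and 4 were the highest, so that most of the list was not raised to that extent. Calml4, F5, 1500015O10Rik and Krt18, named after their values were seen, held the top 2 ranks in these libraries. Kl was at 30.9 CPM in the Mrpl40 het and 33.9 CPM in the double het library, ranks 4 and 2 of the 29 libraries, of which the highest had 36.4 CPM. The part of ependymal cells in the high values of the Mrpl40 het library was not tested.

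In Otx2 a different set of 3 hippocampus libraries was highest, at Ttr levels of 4.18 to 7.73 CPM. The library labelled Slc25a1 het replicate 3, also from an animal with a contradicted label, held 120 counts (4.55 CPM, median of the others 0.181) with Ttr at 7.73 CPM. Its 8 cerebellar genes summed to 639 CPM, against at most 85.4 CPM elsewhere, led by Cbln3 at 196 CPM and the granule cell receptor gene Gabra6 at 69.7 CPM. Its ependymal sum of 23.2 CPM and its thalamic sum of 142 CPM were each the second highest, and its Clic6 level of 2.08 CPM ranked 3. Folr1 (0.303 CPM) and Slc4a5 (0.531 CPM) also ranked 3 in this library.

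The libraries labelled double het replicates 2 and 3 held 62 and 42 Otx2 counts (2.42 and 1.52 CPM), with Ttr at 4.18 and 4.81 CPM and Clic6 at 0.626 and 0.651 CPM. Their cerebellar sums were 72.8 and 58.0 CPM, within the range of the others. Tcf7l2, a transcription factor gene of the thalamus and habenula, was highest in these 2 libraries, at 19.4 and 16.9 CPM against a median of 6.13. It was chosen after its values were seen from a list of 8 thalamic and habenular genes, of which 1 and 0 were highest and 1 each was over 2 times the median there. The list summed to 110 and 99.1 CPM in these libraries, ranks 4 and 8, and the highest sum, 145 CPM, was in wild type replicate 8. The part of cerebellar or thalamic tissue in the Otx2 values was not tested. Sums of the meningeal, endothelial, blood and striatal genes in these 5 libraries lay within the range of the others or, for meningeal and striatal genes in Mrpl40 het replicate 5, were the lowest.

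**Figure D4:**
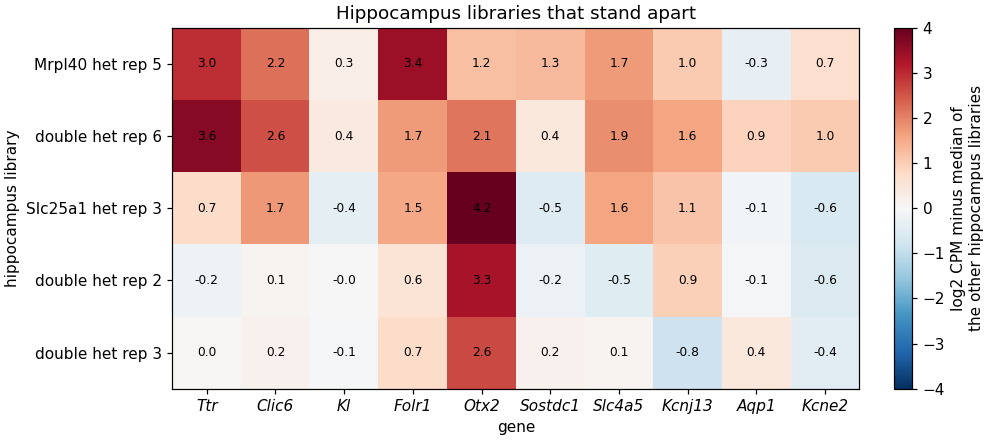
Difference in log2 CPM (prior count 2) between each of 5 hippocampus libraries and the median of the other hippocampus libraries, by gene. The upper 2 rows stand above the lower 3 in Ttr and Clic6, and the lower 3 above the upper 2 in Otx2. Folr1 and Slc4a5 are raised in the upper 2 rows. The row of Slc25a1 het replicate 3 is raised in Clic6 (1.73), Folr1 (1.53) and Slc4a5 (1.57) as well. Kl lies between -0.35 and 0.38 in all.

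Each labelled heterozygous genotype was compared with wild type in each tissue, to ask whether the genotypes change these genes. No member passed the test in any of these 6 comparisons (edgeR, threshold 0.05 after adjustment over all genes), and DESeq2 also called 0. The background was near 0 as well, in cortex 0% of genes for Slc25a1 het, 0.0294% for Mrpl40 het and 0.0686% for double het. In hippocampus it was 0%, 0.00496% and 0.00992% in the same order. Slc25a1 itself was not called in the genotypes labelled heterozygous for it (edgeR adjusted p of 0.247 or more). Its log2 differences were -0.53 (Slc25a1 het) and -0.61 (double het) in cortex, and -0.53 and -0.46 in hippocampus. The lack of calls therefore does not show that the members are unchanged. At an unadjusted p under 0.05 there were 1, 2 and 3 of the 5 tested members in cortex and 2, 4 and 4 of the 7 in hippocampus. These 7 include Otx2, which passed the filter through the heterozygous libraries, so the hippocampal counts are not independent of the filter. Over all genes the same threshold was passed by 646, 1416 and 2226 of 20394 in cortex and by 1567, 1651 and 1064 of 20162 in hippocampus. The comparisons share their wild type libraries, so that like signs are not independent.

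Ttr had positive log2 differences in cortex of 0.90 ± 0.48 (Slc25a1 het), 1.11 ± 0.47 (Mrpl40 het) and 1.10 ± 0.47 (double het), with adjusted p of 1, 0.664 and 0.371. In hippocampus they were 0.85 ± 0.82, 1.83 ± 0.80 and 1.83 ± 0.80, with adjusted p of 0.829, 0.590 and 0.925. Without Slc25a1 het replicate 5 the cortical difference in that genotype was 0.48. The groups overlapped in each case. The 6 tested ependymal genes had hippocampal medians of 0.28, 0.41 and -0.08, with 6, 6 and 2 of them above 0 and none called, and their part in the result was not tested. Without the 2 libraries highest in Ttr, the hippocampal difference was 1.13 in Mrpl40 het and 0.25 in double het. Leaving out the 6 animals with a contradicted label gave 0.94 (Slc25a1 het), 2.04 (Mrpl40 het) and 0.44 (double het) in hippocampus.

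Clic6 had differences of 0.82 ± 0.39, 0.79 ± 0.38 and 1.21 ± 0.37 in cortex and 1.62 ± 0.63, 2.27 ± 0.60 and 2.05 ± 0.61 in hippocampus, in the same order. The cortical values rested in part on single libraries, being 0.55 without Slc25a1 het replicate 5 and 0.43 without Mrpl40 het replicate 4. The smallest unadjusted p was 0.000811 in hippocampus labelled Mrpl40 het, with an adjusted p of 0.578 and, over the fits that each left out 1 library, 0.217 to 0.744. Its wild type hippocampus libraries held 0.125 to 0.488 CPM and those of Mrpl40 het 0.206 to 2.93 CPM, so that the groups overlapped. Without the 2 libraries highest in Ttr, the differences in Mrpl40 het and double het were 1.92 and 1.35. Leaving out the 6 animals with a contradicted label gave 1.63 (Slc25a1 het), 2.59 (Mrpl40 het) and 1.78 (double het) in hippocampus.

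Otx2 in hippocampus had differences of 3.49 ± 1.09, 2.12 ± 1.25 and 3.48 ± 1.09, with adjusted p of 0.50, 0.653 and 0.719. It passed the filter there through the libraries of the heterozygotes, since wild type reached at most 0.306 CPM and 3 of its 8 libraries were at 0. Without its 3 highest libraries the differences were 1.73, 2.13 and 2.34. Leaving out the 6 animals with a contradicted label, the Otx2 differences were 1.72 (Slc25a1 het), 2.14 (Mrpl40 het) and 3.58 (double het). In cortex, where it passed only when no filter was used, they were 2.32 ± 0.71, 2.34 ± 0.70 and 2.92 ± 0.67, with unadjusted p of 0.00162, 0.00127 and 3.73e-05. The adjusted p were 0.894, 0.537 and 0.0645, and these fitted values rest on 5 counts in all wild type libraries. Counts in the groups overlapped, since 1 wild type library held 4.

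The remaining tested members had smaller differences. Kl lay between -0.14 and 0.18 in cortex and was 0.17 ± 0.11, 0.31 ± 0.11 and 0.30 ± 0.11 in hippocampus, with adjusted p of 0.738, 0.587 and 0.879. Sostdc1 lay between -0.36 and 0.02 in cortex and between -0.29 and 0.44 in hippocampus. Aqp1 had -0.37 ± 0.26, -0.48 ± 0.26 and -0.68 ± 0.27 in cortex, the last with an unadjusted p of 0.0162 and an adjusted p of 0.328, and -0.06 to 0.18 in hippocampus. Kcne2 in hippocampus lay between 0.14 and 0.27. Folr1, Slc4a5, Kcnj13 and, in cortex, Kcne2, tested only without the filter, had adjusted p of 0.660 or more. Of these Folr1 in hippocampus labelled Mrpl40 het had the largest difference, 2.20 ± 0.81, and 1 library held 38 of its counts.

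**Figure D5:**
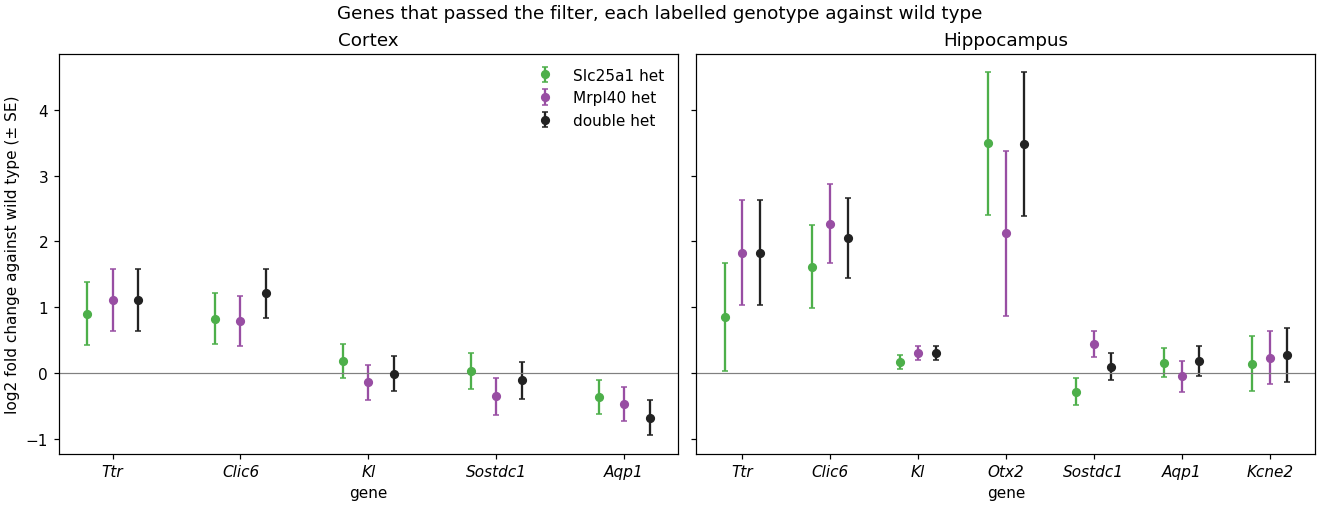
Log2 fold change against wild type (points, edgeR estimate; bars, SE) for members that passed the filter in cortex (5) and hippocampus (7), by labelled genotype; groups hold 7 heterozygous libraries against 9 (cortex) or 8 (hippocampus) wild type. Ttr, Clic6 and hippocampal Otx2 lie above 0 with wide bars, and Kl, Sostdc1 and Kcne2 lie nearer 0; none passed the test.

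The interaction of the alleles, double het minus both heterozygous effects, called 0 members in cortex and in hippocampus, against 0% of all genes in each. The smallest unadjusted p was 0.0329 for Clic6 in hippocampus, with an adjusted p of 0.999. The difference of each genotype effect between the tissues also called 0 members, against 0%, 0% and 0.0234% of all genes. Unadjusted p under 0.05 were seen for Clic6 in Mrpl40 het (edgeR adjusted p = 0.842) and Aqp1 in double het (edgeR adjusted p = 0.987). DESeq2 called 0 members in these tests too. Of the other 29 choroid plexus genes, 0 were called against wild type (21 tested in cortex and 22 in hippocampus), and their median log2 change in the 6 comparisons ranged from -0.11 to 0.05.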

How the data were processed

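The authors deposited raw counts per gene, 1 column per library, without normalization. Normalized counts, a signal deposited by the authors, are the raw values scaled by 1 factor for each library (checked on the values). FastQC, HISAT2, featureCounts and DESeq2 and the builds mm39 and GRCm39 are named in the submitters' processing notes, without versions or roles. Libraries were made with a directional kit, per the labels' protocols. Rows with a blank symbol (7074) held 1.26% of counts. Groups and animals came from the labels. The replicates are separate animals.

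Counts were tested with the quasi-likelihood test of edgeR 4.0.16 in R 4.3.3 (TMM, filterByExpr with a minimum count of 10, robust dispersion), all genotypes of a tissue together, adjusted by Benjamini-Hochberg over all genes at 0.05. Tissues were compared with the animal as a block. DESeq2 1.42.0 and limma 3.58.1 were alternatives. CPM is counts over the library total, and log2 CPM used a prior count of 2. Permutation tests used 100000 resamples. Exon lengths came from GENCODE vM21 (GRCm38), not the authors' build. The tests across genes were tested on simulated data. The members and lists were chosen with earlier results of these data known. All 10 members were named, with up to 4 genes of other lists and the genes most like Ttr; other names were chosen after their values were seen.

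The labels' animal numbers pair the tissues. Deviations from the group mean over 5000 genes correlated with a median of 0.103 between tissues of the same animal (-0.0521 to 0.411 over 29 animals), against -0.00742 otherwise.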

Additional observations from a re-analysis of the deposited data

Results flagged for a closer look

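Of 80 groups of 7 to 9 libraries (10 genes in 8 groups), 5 held a library far from the others in log2 CPM, about what chance gives at 1 in 20. Ttr was low in cortex labelled Slc25a1 het replicate 1, at 0.0969 CPM (3 counts), with the nearest library of its group at 1.66 CPM. Kl was low in cortex labelled Slc25a1 het replicate 4, at 0.765 CPM, with the nearest at 2.43 CPM. In the same library Kcnj13 was at 0 CPM (0 counts, which allows up to 3 counts), with the nearest at 0.189 CPM. Folr1 was high in hippocampus labelled Mrpl40 het replicate 5, at 1.31 CPM (38 counts), with the nearest at 0.182 CPM. Otx2 was high in cortex labelled wild type replicate 5, at 0.126 CPM (4 counts), with the nearest at 0.0334 CPM (1 count).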

How the results depend on the processing

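The alternatives were DESeq2 size factors, no filter, dispersion that is not robust, the replicate number as a block, fewer genotypes, the DESeq2 test, limma on deposited values and leaving out libraries; leaving out the 2 libraries highest in Ttr or the 3 highest in Otx2 was chosen after seeing the data. In the 6 comparisons with wild type the count of called members stayed at 0 in all of them. Between tissues 6 members were called, 7 without the filter and 5 without the 6 animals whose label the Slc25a1 level contradicts. In wild type alone, with fewer animals and 4 members tested, 3 were called, and Aqp1 changed sign (-0.104). With a prior count of 0.5, 1 member in place of 2 differed in spread, and Kcnj13 had 0.0952. With no group median subtracted, 4 members in place of 0 correlated between the tissues of an animal by rho (Ttr, Clic6, Otx2 and, negatively, Sostdc1), Slc4a5 had 0.112 and Kcnj13 -0.0193, and Aqp1 had -0.224 with Ttr in cortex. The other causes were not tested.

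Uncalled log2 differences changed sign as follows. Kl in cortex double het was 0.0821 with the replicate block and 0.110 without the 6 animals, where Sostdc1 was 0.174 in cortex and -0.0779 in hippocampus double het. Aqp1 in hippocampus was 0.0145 in Mrpl40 het by limma and -0.0178 in double het without the 2 libraries highest in Ttr. Leaving out 1 library at a time gave ranges that cross 0 in cortex for Kl in double het (-0.122 to 0.105) and Sostdc1 in Slc25a1 het (-0.114 to 0.139) and double het (-0.238 to 0.0321). In hippocampus they did for Aqp1 in Mrpl40 het (-0.143 to 0.059) and double het (-0.0198 to 0.297) and Kcne2 in Slc25a1 het (-0.114 to 0.311) and double het (-0.0081 to 0.397).

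The replicate numbers do not pair animals of different genotypes in the labels. Same-numbered libraries correlated with medians of 0.115 in cortex and 0.0433 in hippocampus, and 9 of 30 and 4 of 29 libraries correlated best with their own number. The block changed no call of a member. Without the animal block between tissues, 6 members were called. Over all genes, the alternatives other than leaving out a library called 2 to 111 genes in cortex double het (reported, 14), 5 to 23 in Mrpl40 het (6), and 0 to 13 and 0 to 6 in hippocampus Mrpl40 het and double het (1 and 2). Leaving out 1 library gave 1 to 32, 4 to 10, 1 to 3 and 0 to 5. Depth limits Folr1, Slc4a5, Kcnj13 and cortical Otx2, which rest on few counts per library.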
